A study of Oryctolagus cuniculus with 4 samples.

Results

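KAZALD1 is 1 of the 18475 genes counted in single-cell RNA sequencing of the rabbit bladder mucosa, and it was picked by its symbol, which 1 row of the matrices carries (ENSOCUG00000002974). It was proposed with earlier results of these data known, so its levels over cell classes, fibroblast sub-clusters and samples are given as a description, with no test. Tests are kept for the other genes of its pathway.

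The study compared bladder mucosa of New Zealand rabbits at rest (Normal_1 and Normal_2) with mucosa taken on day 10 after a focal piece of it had been resected (Injury_1 and Injury_2), a time at which new urothelium had just closed over the wound. The labels name no transgene, drug or sort for either group. Injury was sampled at this 1 time only. Each of the 4 samples was dissociated with collagenase and run as 1 library. The study calls the samples of a group biological replicates, and the labels name no animals. The labels call the tissue urothelium, but epithelial-like cells made up only 9.31% and 6.403% of the kept cells in the injured samples and 10.2% and 2.84% in the normal ones.

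KAZALD1 encodes a secreted protein that joins a domain like those of the insulin-like growth factor (IGF) binding proteins to a Kazal domain and an immunoglobulin domain. It is counted among the proteins related to the IGF binding proteins and is best known from bone-forming cells and the matrix they make. The IGF binding proteins hold IGF1 and IGF2 in the tissue fluid and at the matrix, and proteases release them. Fibroblasts are the cells that lay down the collagenous matrix under the urothelium, and after a wound they remake it.

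The 4 libraries held between 28745017 and 47881609 unique molecular identifiers (UMIs, each 1 counted RNA molecule) in 5823 to 6884 barcodes, and 21945 cells were kept. Between 8 and 13 barcodes were shared by any pair of libraries, at most 0.223% of a library. Normal_1 was the shallowest, with a median of 4814 UMIs per kept cell against 6755 to 7186 in the others. Cells fell into 10 classes named by markers, and 8915 cells were fibroblast-like: 2019 and 2401 in the injured and 1235 and 3260 in the normal samples. These cells had the highest level of any class for all 6 fibroblast markers in the matrix (COL1A1, COL1A2, COL3A1, DCN, LUM and FBN1), while PDGFRA was not among the genes with a symbol.

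In normal mucosa KAZALD1 was an abundant transcript of fibroblast-like cells, and in injured mucosa it was lower in the same class. Levels are given in CPM, the UMIs of a gene per 1000000 UMIs of the cells of a class, summed per sample. The fibroblast-like cells of Injury_1 held 24.8 CPM of KAZALD1 (95% exact Poisson interval 22.4 to 27.3) and those of Injury_2 held 48.3 CPM (45.4 to 51.3). Those of Normal_1 held 838 CPM (815 to 860) and those of Normal_2 held 748 CPM (737 to 760). Both injured samples lay far below both normal ones, and the groups did not overlap. These intervals cover counting error only. The mean was 36.5 ± 16.6 CPM (SD, n = 2) in the injured and 793 ± 63.1 CPM (SD, n = 2) in the normal samples, a 21.7-fold difference of the means, and the ratio of a normal to an injured sample ran from 15.5 to 33.8. On the log2(CPM + 10) scale the difference, injured minus normal, was -4.15, with a spread between samples of a group of 0.38 (SD). Of the 8766 genes tested in fibroblast-like cells, 28.1% had both injured samples below both normal ones, so the absence of overlap alone marks no gene.

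The size of the difference placed KAZALD1 at the end of the distribution. In the fit of edgeR across all genes its log2 fold change, injured over normal, was -4.32 (SE 0.42). Among the 3488 genes that averaged 20 CPM or more over the normal samples it had the lowest log2 fold change, followed by CALY at -3.06, and among all 8766 genes it ranked 6 from the lowest. This rank is part of how the gene came to be chosen and is no test.

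**Figure D1:**
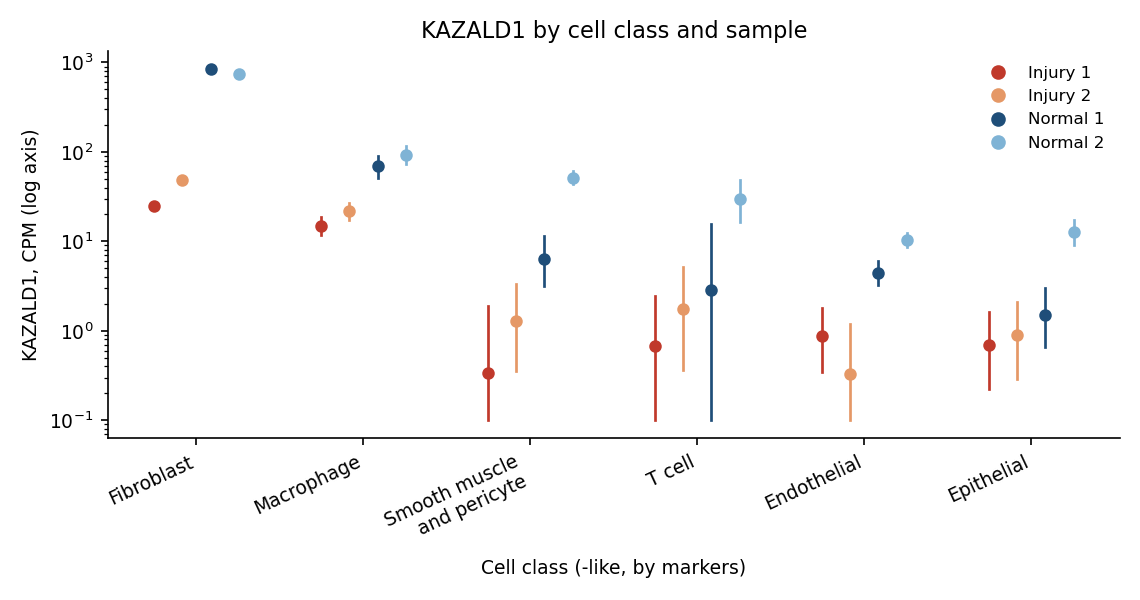
KAZALD1 level (CPM, log axis) in each cell class with at least 20 cells in all 4 samples, 1 point per sample, with lines for the 95% exact Poisson interval cut off at 0.1 CPM. Fibroblast-like cells lie at 24.8 and 48.3 CPM in the injured and at 838 and 748 CPM in the normal samples, above every other class of the same sample.

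The difference was one of most cells rather than of a few. A KAZALD1 UMI was found in 12.5% of the fibroblast-like cells of Injury_1 (252 of 2019) and 23.5% of those of Injury_2 (565 of 2401), against 90.2% in Normal_1 (1114 of 1235) and 90.2% in Normal_2 (2939 of 3260). The median fibroblast-like cell held 0 UMIs in both injured samples and 4 in both normal ones. Cells with 5 or more UMIs made up 0.347% and 1.37% in the injured samples and 41.3% and 46.5% in the normal ones.

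The groups stood in the same order with depth made equal. With every cell of at least 1000 UMIs thinned to 1000 UMIs, 2.37% and 4.67% of the cells of the injured samples and 52.0% and 46.8% of those of the normal samples had a KAZALD1 UMI. In endothelial-like cells, set beside them, the thinned share was 0.0707%, 0.0240%, 0.483% and 0.767% in the same order, below that of the fibroblast-like cells in each sample. Cells below 1000 UMIs were left out: 2, 2, 5 and 10 fibroblast-like and 1, 8, 10 and 10 endothelial-like cells in that order. How much of either share came from free RNA was not tested. Median depths in fibroblast-like cells were 7998, 8533, 5090 and 7011 UMIs, and in endothelial-like cells 6404, 6261, 4649 and 6403 UMIs. Among fibroblast-like cells of 5000 to 10000 UMIs alone, the level was 29.0 and 58.5 CPM in the injured and 826 and 754 CPM in the normal samples.

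**Figure D2:**
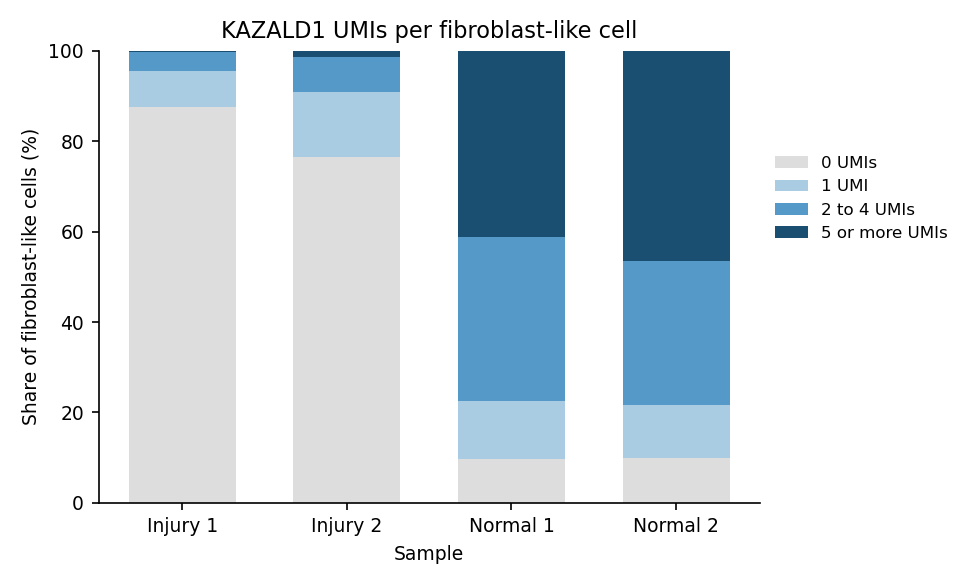
Share of fibroblast-like cells (%) with 0, 1, 2 to 4 and 5 or more KAZALD1 UMIs, stacked to 100% for each sample. Cells without a UMI make up 87.5% and 76.5% of the injured samples and 9.80% and 9.85% of the normal ones.

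Fibroblast-like cells carried most of the KAZALD1 of each sample, 80.0% and 88.3% of its UMIs in the injured and 96.9% and 94.9% in the normal samples. Macrophage-like cells came next, with 14.95 and 21.7 CPM in the injured and 69.3 and 93.2 CPM in the normal samples, and their range did not overlap that of fibroblast-like cells within either group. Most KAZALD1 UMIs of this class lay in its HLA-DRA cluster, described below. Smooth muscle and pericyte-like cells held 0.338 and 1.29 CPM in the injured and 6.395 and 51.7 CPM in the normal samples. T cell-like cells held 0.677, 1.76, 2.83 and 29.5 CPM, endothelial-like cells 0.871, 0.331, 4.47 and 10.5 CPM, and epithelial-like cells 0.690, 0.890, 1.52 and 12.8 CPM, in the order Injury_1, Injury_2, Normal_1 and Normal_2. The ranges of smooth muscle, T cell, endothelial and epithelial-like cells overlapped between neighbours in the order of levels, in both groups of samples.

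B cell-like, mast cell-like and neutrophil-like cells had no KAZALD1 UMI in any sample. In each normal sample these classes had only 5 to 18 cells, too few for a level. There 3 UMIs would have stood for 66.2 to 660 CPM. In the injured samples, 3 UMIs would have stood for 11.7 and 4.77 CPM in B cell-like cells, 46.3 and 24.5 CPM in mast cell-like cells and 27.5 and 57.7 CPM in neutrophil-like cells, so levels below these could not be seen. Glia-like cells had 0 UMIs in both injured samples and 1 UMI in the 25 cells of Normal_1. The 7 glia-like cells of Normal_2 were too few for a level.

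Normal_2 had the highest level in smooth muscle and pericyte, T cell, endothelial and epithelial-like cells, and it also had the largest share of fibroblast-like cells (54.1% against 28.7% to 43.4%). KAZALD1 in these classes was set beside DCN, the abundant proteoglycan transcript of fibroblasts, since free fibroblast RNA would bring both. At the ratio of KAZALD1 to DCN in the fibroblast-like cells of Normal_2, the DCN counted in each class would come with 102 CPM of KAZALD1 in smooth muscle and pericyte-like, 29.3 CPM in T cell-like, 7.22 CPM in endothelial-like and 14.8 CPM in epithelial-like cells. The levels measured there were 51.7, 29.5, 10.5 and 12.8 CPM. With the top 5% of doublet scores left out, they were 19.9, 4.30, 7.40 and 5.33 CPM. The T cell-like level with all cells rested on 15 UMIs in 4 cells, with up to 10 in a cell. The shares of free RNA and of doublets in these levels were not tested.

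Macrophage-like cells consisted of 2 clusters that differed in KAZALD1, a split looked at after the values had been seen. The cluster led by complement genes (C1QA and C1QB, with the receptor gene CSF1R) held 0.525 and 4.42 CPM in the injured and 3.07 and 18.1 CPM in the normal samples. The cluster led by TNNI1, DNASE1L3 and the MHC class II genes HLA-DRA and CD74, which serve antigen presentation, held 66.1 CPM (interval 51.6 to 83.4) and 55.6 CPM (43.9 to 69.5) in Injury_1 and Injury_2. It held 120 CPM (89.6 to 158) and 191 CPM (150 to 240) in Normal_1 and Normal_2. These values rest on 140, 170, 61 and 39 cells, of which 32.1%, 33.5%, 44.3% and 53.9% had a KAZALD1 UMI. C1QA, C1QB and CSF1R were not among the leading genes of this cluster, and whether its cells are macrophages was not tested.

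In both injured samples the HLA-DRA cluster lay above the fibroblast-like cells, 66.1 against 24.8 CPM and 55.6 against 48.3 CPM, while in both normal samples it lay far below them. The interval of Injury_2 (43.9 to 69.5 CPM) reaches the fibroblast level of that sample, so there the order is within counting error. The difference in the HLA-DRA cluster, injured minus normal, was -1.195 on the log2(CPM + 10) scale, against -4.15 in fibroblast-like cells, and whether these differences are unequal beyond the spread between samples was not tested.

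In the injured samples little DCN came with the KAZALD1 of the HLA-DRA cluster. The cluster held 683 and 626 KAZALD1 UMIs per 1000 DCN UMIs there, against 0.808 and 1.79 in fibroblast-like cells. In Normal_1 and Normal_2 it held 491 and 1425 CPM of DCN. There it had 245 and 134 KAZALD1 UMIs per 1000 DCN UMIs, against 41.2 and 51.2 in fibroblast-like cells. At the fibroblast ratio, the DCN of the cluster would come with 0.0782 and 0.159 CPM of KAZALD1 in the injured samples. In the normal ones it would come with 20.2 and 73.0 CPM. With the top 5% of doublet scores left out, the levels were 66.0, 57.0, 107 and 152 CPM. Cells of the cluster with no UMI of DCN, LUM or COL1A2 held 42.2 CPM (29 cells, exact Poisson interval 17.0 to 87.0) and 32.8 CPM (28 cells, 14.2 to 64.6) in the injured samples and 92.1 CPM (47 cells, 61.7 to 132) in Normal_1. Normal_2 had only 5 such cells with 3 KAZALD1 UMIs, too few for a level. How much of the KAZALD1 of the cluster came from free RNA or doublets was not tested.

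**Figure D3:**
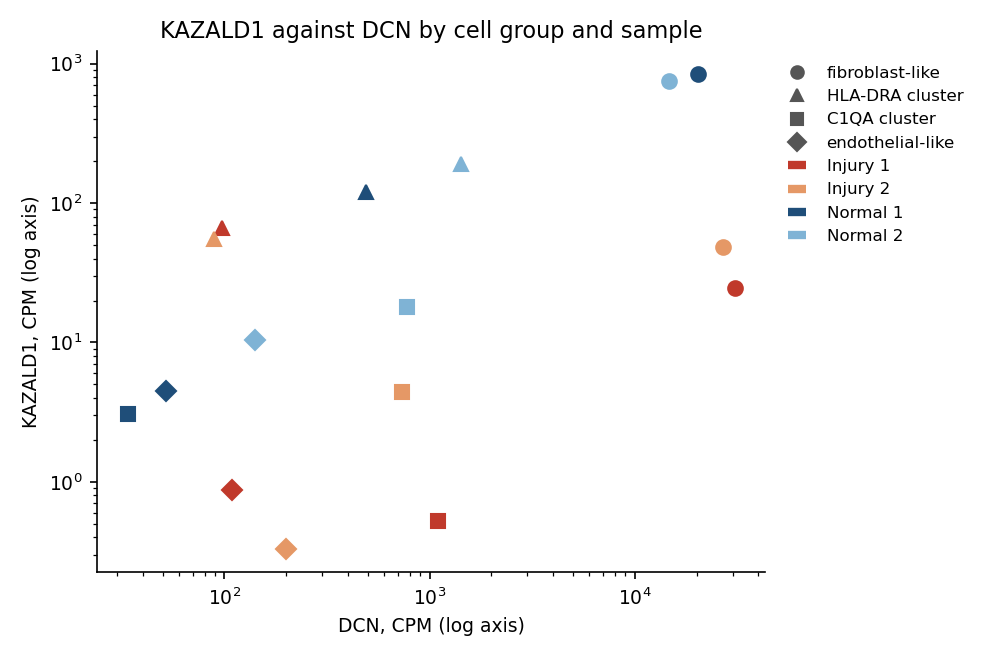
KAZALD1 against DCN (both CPM, log axes) in fibroblast-like cells, in the HLA-DRA and C1QA clusters of macrophage-like cells and in endothelial-like cells, 1 point per sample. The HLA-DRA cluster of the injured samples stands at 66.1 and 55.6 CPM of KAZALD1 with 96.8 and 88.8 CPM of DCN, apart from the fibroblast-like cells of the same samples with 30652 and 26902 CPM of DCN.

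Cells that were given no class held 11.8, 35.6, 120 and 326 CPM. They include a cluster of 219 cells led by proliferation genes, whose best match was fibroblast, with 9.16, 37.0, 122 and 357 CPM. The injured samples were the lower ones there too, but 32.4% of this cluster lay in the top 5% of doublet scores. Another cluster without a class had 117 cells, 98.3% of them in the top 5% of doublet scores. It gave 251 of the 537 KAZALD1 UMIs of such cells in Normal_2 and had no cells in Normal_1.

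The fibroblast-like cells were divided again into 9 sub-clusters, with KAZALD1 kept out of the genes used, and 6 of them had at least 20 cells in every sample. Sub-cluster 5, led by the peptidase gene LVRN and by S100A4 and EFEMP1, held the most KAZALD1 in all 4 samples: 75.8 and 115 CPM in the injured and 1197 and 1198 CPM in the normal ones. Sub-cluster 0, led by the chemokine gene CCL2 and by ITGBL1, MYOC, MFAP5, SFRP2 and PCOLCE2, held 20.04 and 38.0 CPM in the injured and 1112 and 1014 CPM in the normal samples.

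Sub-cluster 4, led by APOD, CPB1 and CP, held 25.9 and 45.8 CPM in the injured and 955 and 896 CPM in the normal samples. Sub-cluster 2, led by IGFBP5 and ADH6, held 31.3, 47.3, 835 and 746 CPM in the order Injury_1, Injury_2, Normal_1 and Normal_2. Sub-cluster 3, led by CALY and OTULINL and scoring highest for the list of TCF21 and EDIL3, held 10.2, 29.2, 690 and 573 CPM. Sub-cluster 1, led by the metalloprotease genes MMP3, MMP10 and MMP1 and scoring highest for the list of WIF1, HHIP and PTPRQ, held 8.56, 44.8, 490 and 565 CPM.

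In every one of these 6 sub-clusters both injured samples lay below both normal ones. The difference on the log2(CPM + 10) scale ran from -4.82 in sub-cluster 0 to -3.54 in sub-cluster 5. In the normal samples the order 5, 0, 4, 2, 3, 1 held without overlap between neighbours. In the injured samples only sub-cluster 5 stood apart, and the ranges of the other neighbours overlapped. With the same mix of the 6 sub-clusters in each sample, the level was 24.2 and 48.0 CPM in the injured and 880 and 830 CPM in the normal samples, against 24.5, 48.4, 845 and 756 CPM with each sample's own mix. At resolution 0.8, a sub-cluster with COCH and COL11A1 among its leading genes had 247 and 291 injured but 5 and 22 normal cells. It held 13.2 and 16.6 CPM of KAZALD1 in the injured samples and 622 CPM in Normal_2, with too few cells in Normal_1. The 12 sub-clusters at this resolution with at least 20 cells in every sample had differences from -5.04 to -3.49. An equal mix of sub-clusters at resolution 0.8 was not tested.

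**Figure D4:**
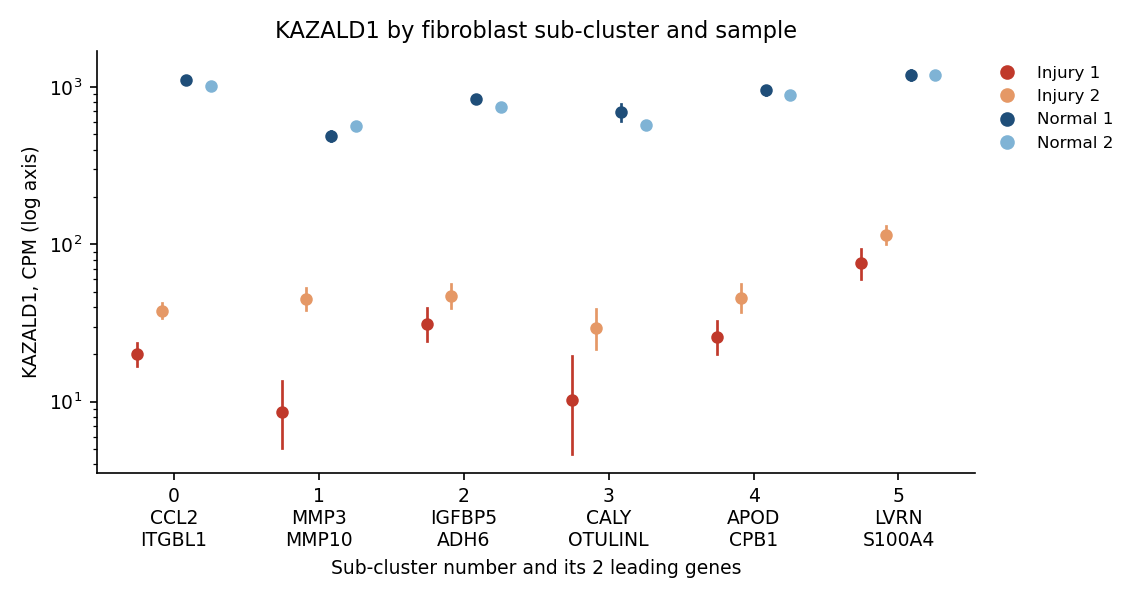
KAZALD1 level (CPM, log axis) in the 6 fibroblast sub-clusters with at least 20 cells in every sample, 1 point per sample, with lines for the 95% exact Poisson interval. Sub-cluster 5 is the highest in each sample (75.8, 115, 1197 and 1198 CPM), and in all 6 the injured points lie below the normal ones.

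The remaining sub-clusters were small. Sub-cluster 6 (117 cells) was led by IL1B, CCL21 and VWF, markers of other cells, and 51.3% of it lay in the top 5% of doublet scores. Sub-cluster 7 (55 cells) was led by IBSP and RGS5, with 87.3% such cells, and sub-cluster 8 (41 cells) by MCM replication genes. Of these 41 cells, 36 came from Normal_2, with 531 CPM of KAZALD1.

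Other measures moved with the groups, and their part in the KAZALD1 difference was not tested. In fibroblast-like cells the summed fibroblast markers (6 of 7 in the matrix) stood at 121466 and 137734 CPM in the injured and at 61671 and 87201 CPM in the normal samples. The neutrophil markers (5 of 7 in the matrix, none at 0) stood at 125 and 58.9 CPM against 15.3 and 31.8 CPM, and the endothelial markers (7 of 8, none at 0) at 29.4 and 21.0 CPM against 48.2 and 46.0 CPM. Macrophage markers (9 of 9, with 1 at 0 in Normal_1) stood at 112 and 88.7 CPM against 84.4 and 50.6 CPM, and T cell markers (5 of 8, with 2 at 0 in Normal_1) at 12.3 and 5.39 CPM against 2.63 and 1.49 CPM. B cell markers (7 of 8) stood at 9.40 and 17.9 CPM against 3.25 and 1.66 CPM, with 1 of them at 0 in Injury_2, 3 in Normal_1 and 2 in Normal_2. Genes of the response to dissociation (4 of 8) summed to 4895 and 5743 CPM against 3955 and 4775 CPM. The median mitochondrial share was 7.21% and 7.35% against 8.18% and 8.56%. SFXN3, the gene next to KAZALD1 in the RefSeq assembly mOryCun1.1, overlapped between the groups, with 59.6 and 75.2 CPM in the injured and 66.9 and 127 CPM in the normal samples.

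Some genes had a pattern like that of KAZALD1, given as a description over points that share libraries and depth. Over 33 points of class and sample, the gene most like it among 3725 was PTPRQ, a receptor-type phosphatase gene (Pearson r = 0.85). CALY (r = 0.84), SLC7A3 (0.83), NEFL (0.83), VIT (0.82), LNP1 (0.80), WIF1 (0.80), KERA (0.80), THRB (0.79) and HHIP (0.78) followed. WIF1 and HHIP encode secreted or membrane-bound antagonists of WNT and hedgehog ligands. PTPRQ held 12.4, 29.8, 48.1 and 124 CPM in the fibroblast-like cells of Injury_1, Injury_2, Normal_1 and Normal_2. CALY held 8.19, 12.2, 46.8 and 134 CPM in the same order. Yet PTPRQ, NEFL and HHIP were among the leading genes of sub-cluster 1, and CALY led sub-cluster 3. In both normal samples these sub-clusters held the least KAZALD1 of those with at least 20 cells in every sample. None of the genes named here was among the 10 most alike over fibroblast sub-clusters and samples.

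Over 28 points of fibroblast sub-cluster and sample, the most alike was ATP8, a gene of the mitochondrial genome (r = 0.95), with 98.4 and 108 CPM in the injured and 391 and 278 CPM in the normal samples. GSTM2 (0.87), ENTPD1 (0.87), MGP (0.84), KMT2E (0.83), APPL1 (0.82), MINDY2 (0.82), CALM2 (0.81), WASF2 (0.79) and USP45 (0.78) followed. These points fall into an injured and a normal set, so r mostly ranks genes by that contrast. At the other end stood ADAMTS19 (r = -0.92) and COCH (r = -0.91), the latter a matrix gene with 301 and 115 CPM in the injured and 14.996 and 3.36 CPM in the normal samples.

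The IGF axis was described in fibroblast-like cells from a list of 39 symbols, of which 18 were in the matrices and 14 had enough counts. In the edgeR quasi-likelihood test no gene of any kind passed an adjusted p of 0.05 (0 of 8766, percent called 0), with 954 genes at an unadjusted p under 0.05. DESeq2 called 172 genes higher (1.88% of 9129) and 91 lower (0.997%). No IGF axis gene passed in edgeR, 5 of 14 had an unadjusted p under 0.05, and the median log2 fold change was 0.38, against 0.0023 over all genes tested. DESeq2 called 2, IGF1 and IGFBP4.

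Among the ligands only IGF1, the growth factor that the binding proteins hold, was among the genes with a symbol. It held 282 and 212 CPM in the injured and 63.8 and 35.5 CPM in the normal samples, so that the groups did not overlap. Its log2 fold change was 2.46 (SE 0.36, edgeR adjusted p = 0.133) and the adjusted p of DESeq2 was 2.47e-08. Without Injury_2 the edgeR adjusted p was 0.0356, and with each of the other samples left out it ran from 0.0591 to 0.096. Of all genes tested, 15.8% had both injured samples above both normal ones. IGF1 was among the leading genes of a sub-cluster at resolution 0.2 whose share differed between samples. That sub-cluster had 614 of 2019 and 609 of 2401 cells in the injured and 218 of 1235 and 279 of 3260 in the normal samples. The part of this mix in the IGF1 difference was not tested.

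Of the binding proteins, IGFBP4, which sequesters IGF1, held 324 and 176 CPM in the injured and 62.5 and 34.5 CPM in the normal samples, a log2 fold change of 2.51 (SE 0.44, edgeR adjusted p = 0.164). The adjusted p of DESeq2 was 4.33e-07. Without Injury_2 the edgeR adjusted p was 0.024, and with each of the other samples left out it ran from 0.103 to 0.163. IGFBP5 stood on the other side, with 1149 and 1370 CPM in the injured and 2384 and 2571 CPM in the normal samples (log2 fold change -0.86, SE 0.23, edgeR adjusted p = 0.294). IGFBP6, the most abundant of the list, overlapped between the groups, with 4463, 7236, 4546 and 8606 CPM in the order Injury_1, Injury_2, Normal_1 and Normal_2.

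Of the relatives of the binding proteins, the group to which KAZALD1 belongs, CCN1, CCN2, CCN3 and HTRA1 had a log2 fold change above 0 and CCN4 and ESM1 one below 0. CCN1, a matricellular gene, held 3939 and 4724 CPM in the injured and 1270 and 2520 CPM in the normal samples (log2 fold change 1.29, SE 0.40, edgeR adjusted p = 0.344). CCN2, known as connective tissue growth factor, held 193 and 512 CPM against 43.6 and 165 CPM. CCN3 held 28.9 and 96.4 CPM against 31.8 and 31.2 CPM, and CCN4 13.5 and 10.9 CPM against 53.5 and 20.03 CPM. HTRA1, a protease gene, held 204 and 196 CPM against 153 and 166 CPM, and ESM1 at most 6.49 CPM in any sample.

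Among receptors and adaptors, IGF2R (3.56 to 9.02 CPM) and IRS1 (2.03 to 2.94 CPM) were low in all 4 samples. IGF1R, INSR and IRS2 were not among the genes with a symbol, so no level can be given for them. The same holds for IGFBP3, IGFBP7 and PAPPA. Of the proteases and their inhibitors, ADAMTS1 held 1178, 1066, 1034 and 920 CPM and STC2 at most 3.26 CPM. For none of IGF2R, IRS1, ADAMTS1 and STC2 did the test of edgeR pass.

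**Figure D5:**
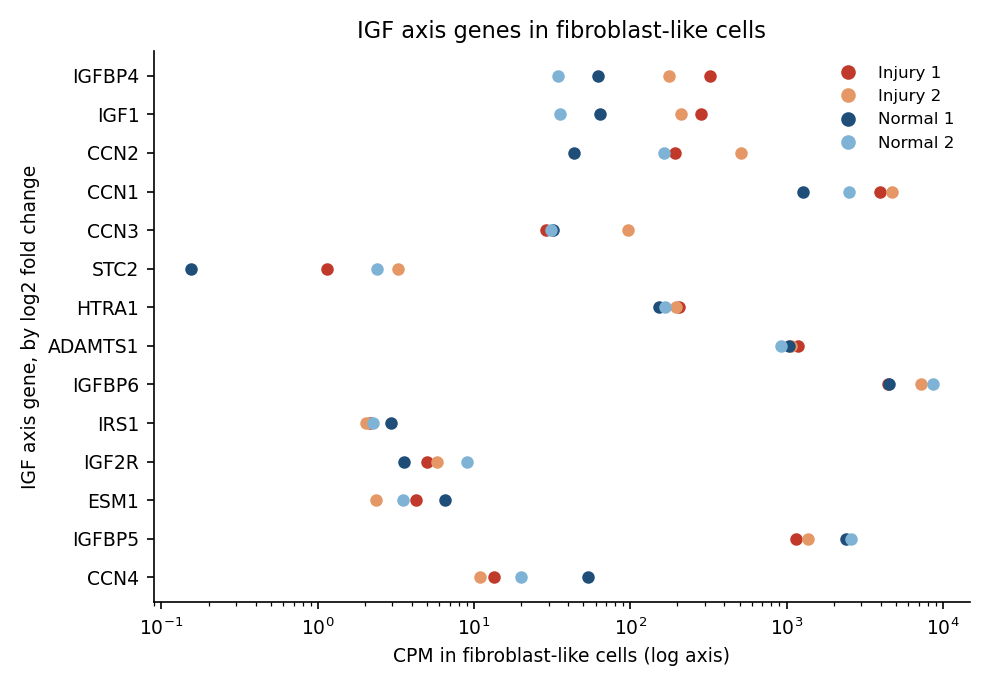
Level (CPM, log axis) of the 14 tested IGF axis genes in fibroblast-like cells, 1 point per sample, ordered by log2 fold change. IGFBP4 and IGF1 have the highest fold changes, with both injured points above both normal ones, and IGFBP5 and CCN4 lie on the other side.

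Genes that share the Kazal domain were measured for 13 of 22 symbols, and 6 were tested. None passed in edgeR, and 3 had an unadjusted p under 0.05, against 954 of all 8766 genes tested. The median log2 fold change of the list was -0.25. FST, the secreted activin antagonist follistatin, held 214 and 161 CPM in the injured and 62.3 and 50.1 CPM in the normal samples (log2 fold change 1.87, SE 0.27, edgeR adjusted p = 0.133). SPARCL1, a matricellular gene, held 302 and 486 CPM against 1390 and 1207 CPM (-1.60, SE 0.31, edgeR adjusted p = 0.179). DESeq2 called both, with adjusted p of 9.61e-06 and 0.000903, where it called 1.88% of all 9129 genes higher and 0.997% lower. SPARC, with 140, 176, 218 and 152 CPM, overlapped between the groups.

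Of the bone and mineral matrix genes, 12 of 22 were tested and none passed in edgeR. An unadjusted p under 0.05 was found for 4 of them, against 954 of all 8766 genes tested. The median log2 fold change of the list was -0.23. MGP, which encodes an inhibitor of calcification, held 11690 and 10903 CPM in the injured and 29276 and 25584 CPM in the normal samples (log2 fold change -1.15, SE 0.17, edgeR adjusted p = 0.133, DESeq2 adjusted p = 0.0159). RUNX2, the regulator of bone-forming cells, stood at 1.40 to 3.86 CPM, BGLAP, which encodes osteocalcin, at 0.155 to 0.331 CPM, and SP7, DLX5, MEPE and PHOSPHO1 at 0 in all 4 samples. ALPL, the alkaline phosphatase of mineralizing cells and of other tissues, held 29.3 and 46.0 CPM in the injured and 60.6 and 175 CPM in the normal samples.

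Of the wound matrix genes, 11 of 18 were tested and none passed in edgeR. An unadjusted p under 0.05 was found for 6 of them, against 954 of all 8766 genes tested. The median log2 fold change of the list was 0.84. This list, like the others, was chosen with earlier results of these data known, so its count and median are a description and no test. DESeq2 called COCH, FAP and COL11A1 higher and COL12A1 lower, where it called 1.88% of all 9129 genes higher and 0.997% lower. These are sums over the whole class. COCH and COL11A1 were among the leading genes of a sub-cluster at resolution 0.8 with 247 and 291 injured and 5 and 22 normal cells. COL12A1 was among those of sub-cluster 3, with 133, 225, 72 and 732 cells in the order Injury_1, Injury_2, Normal_1 and Normal_2. The part of the mix of sub-clusters in these differences was not tested. Without Injury_2 edgeR called COCH (adjusted p = 0.024), whose value ran from 0.112 to 0.154 with each of the other samples left out. COL11A1, a fibrillar collagen gene, held 14.8 and 13.5 CPM against 3.86 and 4.81 CPM, and FAP, a surface protease gene, 19.6 and 36.2 CPM against 9.89 and 4.04 CPM. COL12A1 held 134 and 221 CPM in the injured and 462 and 919 CPM in the normal samples.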

How the data were processed

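Bladder mucosa of 2 injured and 2 normal samples was run on the Chromium 3' v3 assay. The authors made the deposited UMI counts, whole numbers without normalization, with Cell Ranger 6.0.1 per the file headers, and the genome build is not given in the sources used here. The lists and KAZALD1 were chosen with earlier results of these data known.

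Cells with at least 500 UMIs and 200 genes and at most 15% mitochondrial counts were kept, integrated (2000 variable genes without KAZALD1, 30 components) and clustered at resolution 0.8 with Seurat 5.3.0, and fibroblast-like cells again at 0.4. The latter resolution was not written down beforehand. Of 26 clusters, 3 stayed unnamed (695 cells), 1 of them by a limit of 5 leading proliferation genes set after the clusters had been seen. Doublets were scored with Scrublet (scanpy 1.11.5), which called 336 cells, and were kept in the main results.

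UMIs were summed per sample and class with at least 20 cells. Levels are CPM, compared as log2(CPM + 10), so differences of low genes are understated. Other genes were tested on counts of fibroblast-like cells with edgeR 4.0.16 (quasi-likelihood, robust, filterByExpr, TMM, Benjamini-Hochberg over all genes), with DESeq2 1.42.0 beside it. The edgeR fit was tested on simulated data. Named genes were the IGF axis members tested, the called members of the other lists and the 10 genes most like KAZALD1. As edgeR called none, members of the other lists were named by DESeq2 calls or after their values had been seen. Thinned shares are expectations over all draws of 1000 UMIs per cell, for cells with at least 1000 UMIs. Gene symbols came from the matrices (9771 of 18475), and RefSeq gave neighbours only.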

Additional observations from a re-analysis of the deposited data

How the results depend on the processing

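The KAZALD1 difference in fibroblast-like cells (-4.15 on the log2 scale) kept its direction under all 13 alternatives. It moved beyond the spread between samples with a pseudocount of 50 (-3.30), which compresses low levels by construction, and ran from -4.53 to -3.78 with each sample left out. The difference in the thinned share was -45.9 percentage points, which became -63.1 with 2000 UMIs per cell and -72.2 without thinning, and ran from -48.5 to -43.2 with each sample left out. The lead of fibroblast-like over macrophage-like cells (1.91 on the log2 scale, SD 1.45, n = 4) was 0.48 and 0.88 in the injured and 3.42 and 2.88 in the normal samples. In the injured samples it is a lead over a mix of 2 clusters. The HLA-DRA cluster (66.1 and 55.6 CPM) lay above the fibroblast-like cells there, and the C1QA cluster (0.525 and 4.42 CPM) below them. The mean lead ran from 1.41 to 2.39 with each sample left out. The smallest fall among sub-clusters (-3.54) stayed between -3.69 and -3.49. The difference in the HLA-DRA cluster (-1.20) stayed negative under 6 alternatives added after seeing the data, from -1.51 to -0.88 with each sample left out. The alternative of cells with no UMI of DCN, LUM or COL1A2 has only 5 cells in Normal_2.

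The count of genes called in fibroblast-like cells depended on the tool. It was 0 with edgeR, also with RLE scaling, without the robust option (added after seeing the data), with stricter mitochondrial and doublet limits and with classes from resolution 0.3. It was 263 with DESeq2 and 454 in edgeR without a filter, and the cause was not tested. With each sample left out it ran from 0 to 62: 31 without Injury_1, 62 without Injury_2, 15 without Normal_1 and 0 without Normal_2, where the lone sample of a group is assumed to vary like the other group. The IGF axis calls were 2 with DESeq2, 4 without a filter and 0 to 2 with each sample left out, the 2 being IGF1 and IGFBP4 without Injury_2. The Kazal domain calls were 2 and 2, the bone matrix calls 1 and 1, and the wound matrix calls 4 and 4 with DESeq2 and without a filter, and the wound matrix calls ran from 0 to 1 with each sample left out, the 1 being COCH without Injury_2.

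No source says that an equal replicate number marks a shared animal, litter or day. With the replicate block in edgeR, 74 genes were called (53 higher, 21 lower), among them 2 of the IGF axis (IGF1, adjusted p = 0.0327, and IGFBP4, 0.0326), 1 of the Kazal domain (FST, 0.0461), 0 of the bone matrix and 1 of the wound matrix list (COCH, 0.0126), and the KAZALD1 log2 fold change was -4.39. Deviations of Injury_1 and Normal_1 from their group means correlated at 0.232 over 8766 genes. The 2 samples per group and low KAZALD1 counts in small classes limit these values.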
